A study of Mus musculus with 8 samples.

Results

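RNA of the proteasome genes was followed in granulocyte progenitors (GPs) sorted from mouse bone marrow. The members were the genes with a non-control array probe, identified by an NM_ RefSeq accession, whose symbol starts with Psma, Psmb, Psmc, Psmd, Psme, Psmf or Psmg and a digit. This rule, which uses no measured value, took in 61 probes of 50 genes, of 20284 genes named on the array. Of the 50 genes, 48 encode subunits, assembly chaperones or regulators of the proteasome. The other 2 matched by symbol: Psmc3ip, a cofactor of meiotic recombination, and Psme3ip1, which encodes a protein that binds the activator subunit encoded by Psme3. Probes had to be well above background on the 2 arrays of some group, and 49 members passed, 47 of them proteasome genes. Psmb11, the catalytic subunit of the thymus, was not well above background on any of the 8 arrays. Of the 47 proteasome genes tested, 46 were well above background on all 8 arrays, and Psma8 was so on the 4 wild-type arrays only.

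The study set progenitors carrying the cytokine receptor Flt3 on their surface against those without it, in mice that were wild type (WT) or deficient for Irf8 (labelled Irf8KO), which encodes a transcription factor that shapes myeloid development. The 4 groups, WT Flt3+, WT Flt3-, Irf8KO Flt3+ and Irf8KO Flt3-, held 2 one-colour arrays each, 1 from each of 2 independent experiments, and all cells were taken directly from bone marrow with no treatment named. The sources used here do not give strain, age, sex, the Irf8 allele or the number of animals behind a sample, and p-values therefore measure the spread between these samples only. In each sentence below, Irf8KO names the label of the arrays.

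The proteasome degrades proteins that carry ubiquitin chains. Its barrel-shaped 20S core has outer rings of alpha subunits, which gate the entrance, and inner rings of beta subunits, of which those encoded by Psmb5, Psmb6 and Psmb7 cut peptide bonds. The 19S regulatory particle caps the core: its base holds the ATPases that unfold substrates (Psmc genes), and its lid removes ubiquitin. In haematopoietic cells and under interferon gamma, Psmb8, Psmb9 and Psmb10 supply alternative catalytic subunits, which form the immunoproteasome, and Psme1 and Psme2 encode the PA28 alpha and beta activator. Both change the peptides offered to MHC class I. Granulocyte progenitors build large amounts of granule protein, and IRF8 can bind interferon-response elements and, with partners, composite ETS-IRF elements.

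To show the DNA in front of members whose values differed in kind, promoter sequences were read from RefSeq (GRCm38.p6; 250 bases before to 50 bases after the annotated start), where 42 of the 50 members had 1 or more entries, 46 windows in all. Counts of all 10 motifs searched follow the sequences. In the first 3 windows capitals would mark an interferon-response element (ISRE, here GAAA, any 2 bases, then GAAA), an ETS-IRF composite (GGAA, any 2 bases, then GAAA), an interferon-gamma-activated site (GAS, TTCNNNGAA) or an NF-kappaB site. Psmb8 (chr17:34197945-34198244, plus strand) holds a GAS match, Psmb9 (chr17:34187281-34187580, minus strand) holds none of these 4, and Psme1 (chr14:55578244-55578543, plus strand) holds overlapping ISRE and ETS-IRF matches. Psmb5 (chr14:54617946-54618245, minus strand) is shown as a constitutive catalytic subunit with an antioxidant response element (TGACNNNGC) in capitals, and Psmd6 (chr14:14120896-14121195, minus strand) as a lid subunit with the ETS core CCGGAA in capitals.
Psmb8: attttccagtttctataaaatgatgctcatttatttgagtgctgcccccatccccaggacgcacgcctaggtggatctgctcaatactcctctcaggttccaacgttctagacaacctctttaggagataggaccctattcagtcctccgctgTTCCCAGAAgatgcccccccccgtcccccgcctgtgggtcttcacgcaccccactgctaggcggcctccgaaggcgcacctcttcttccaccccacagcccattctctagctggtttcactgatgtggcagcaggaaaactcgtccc
Psmb9: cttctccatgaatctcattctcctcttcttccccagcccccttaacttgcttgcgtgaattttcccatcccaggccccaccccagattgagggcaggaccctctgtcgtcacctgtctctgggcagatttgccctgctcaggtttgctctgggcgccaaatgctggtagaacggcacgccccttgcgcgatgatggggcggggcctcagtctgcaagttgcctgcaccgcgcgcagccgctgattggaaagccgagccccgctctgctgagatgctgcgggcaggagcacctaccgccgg
Psme1: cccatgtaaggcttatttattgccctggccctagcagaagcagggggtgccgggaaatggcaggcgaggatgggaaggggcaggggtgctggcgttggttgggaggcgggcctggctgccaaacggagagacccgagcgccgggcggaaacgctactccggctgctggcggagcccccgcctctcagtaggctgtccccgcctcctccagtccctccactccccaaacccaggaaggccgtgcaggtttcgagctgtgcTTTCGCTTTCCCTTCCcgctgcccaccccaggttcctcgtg
Psmb5: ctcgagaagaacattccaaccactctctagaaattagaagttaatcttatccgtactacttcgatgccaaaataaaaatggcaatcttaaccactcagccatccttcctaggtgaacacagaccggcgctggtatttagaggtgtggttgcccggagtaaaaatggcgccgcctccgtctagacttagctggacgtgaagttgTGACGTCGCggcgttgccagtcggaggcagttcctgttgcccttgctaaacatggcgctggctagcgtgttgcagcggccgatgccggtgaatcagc
Psmd6: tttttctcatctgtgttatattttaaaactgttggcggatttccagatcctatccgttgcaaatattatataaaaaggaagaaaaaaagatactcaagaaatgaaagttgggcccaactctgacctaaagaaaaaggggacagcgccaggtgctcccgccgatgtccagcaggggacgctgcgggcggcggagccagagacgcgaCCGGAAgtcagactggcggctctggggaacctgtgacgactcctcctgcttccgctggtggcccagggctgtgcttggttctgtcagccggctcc

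On both strands, the ETS core CCGGAA was found in 22 of the 42 members with a window (52.4%), beside 28.2% of the tested genes with a window and 16.7% of all genes with one. It lay before genes of every large class, among them Psma6 of the alpha ring, Psmc5 of the ATPases, Psmd13 of the lid, Psmg1 of the chaperones and the activators Psme3 and Psme4. The ISRE was found in 5 members (11.9%, beside 3.88% of the tested genes): Psmb3, Psmd4, Psmd9, Psme1 and Psmg4. The ETS-IRF composite was found in Psmc2 and Psme1 (4.76%, beside 2.89%), and the GAS in Psmb8, Psmd2 and Psmg1 (7.14%, beside 8.63%). The antioxidant response element was found in 6 members (14.3%, beside 16.5%): Psmb5, Psmb6, Psmc6, Psmd12, Psmd9 and Psme4. The remaining motifs searched were the CCAAT box CCAAT (38.1%, beside 42.9%), the NRF1 motif GCGCATGC (7.14%, beside 5.41%), the E-box CACGTG (11.9%, beside 11.1%), the GC box GGGCGG (57.1%, beside 63.1%) and the NF-kappaB site (0 members, beside 0.248%). A match describes these letters in this window and not a bound site. The windows of Psmb9 and of Tap1, a subunit of the peptide transporter of class I presentation, overlapped by 275 bases on opposite strands, with starts 226 bases apart.

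The 8 arrays each held 55681 probes, with 54.9 to 60.1% of spots well above background and none saturated, and the number of arrays limits the precision. Across genes, the 2 arrays of each group had r = 0.9958 to 0.9975. The median SD of the members within a group ran from 0.0231 to 0.0444 log2. All arrays lay on 1 slide in 1 scan, with WT in one row and Irf8KO in the other and with Flt3+ and Flt3- in separate columns, so position and group cannot be told apart. The single Irf8 probe read higher on the Irf8KO arrays (6.67 and 6.67 in Flt3+, 5.64 and 5.53 in Flt3-) than on the WT arrays (5.80 and 5.87, 4.85 and 4.88). The sources used here do not give the deleted part, so this probe checks no label. Flt3 read 6.21 on both WT Flt3+ arrays and 1.69 and 1.66 on the WT Flt3- arrays, and 6.29 and 6.30 against 2.71 and 2.68 in Irf8KO. Values are log2 processed intensities minus the 75th percentile of the array. Differences are limma estimates with their SE, from 2 arrays per group, called at a Benjamini-Hochberg adjusted p under 0.05 over 14110 genes.

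**Figure D1:**
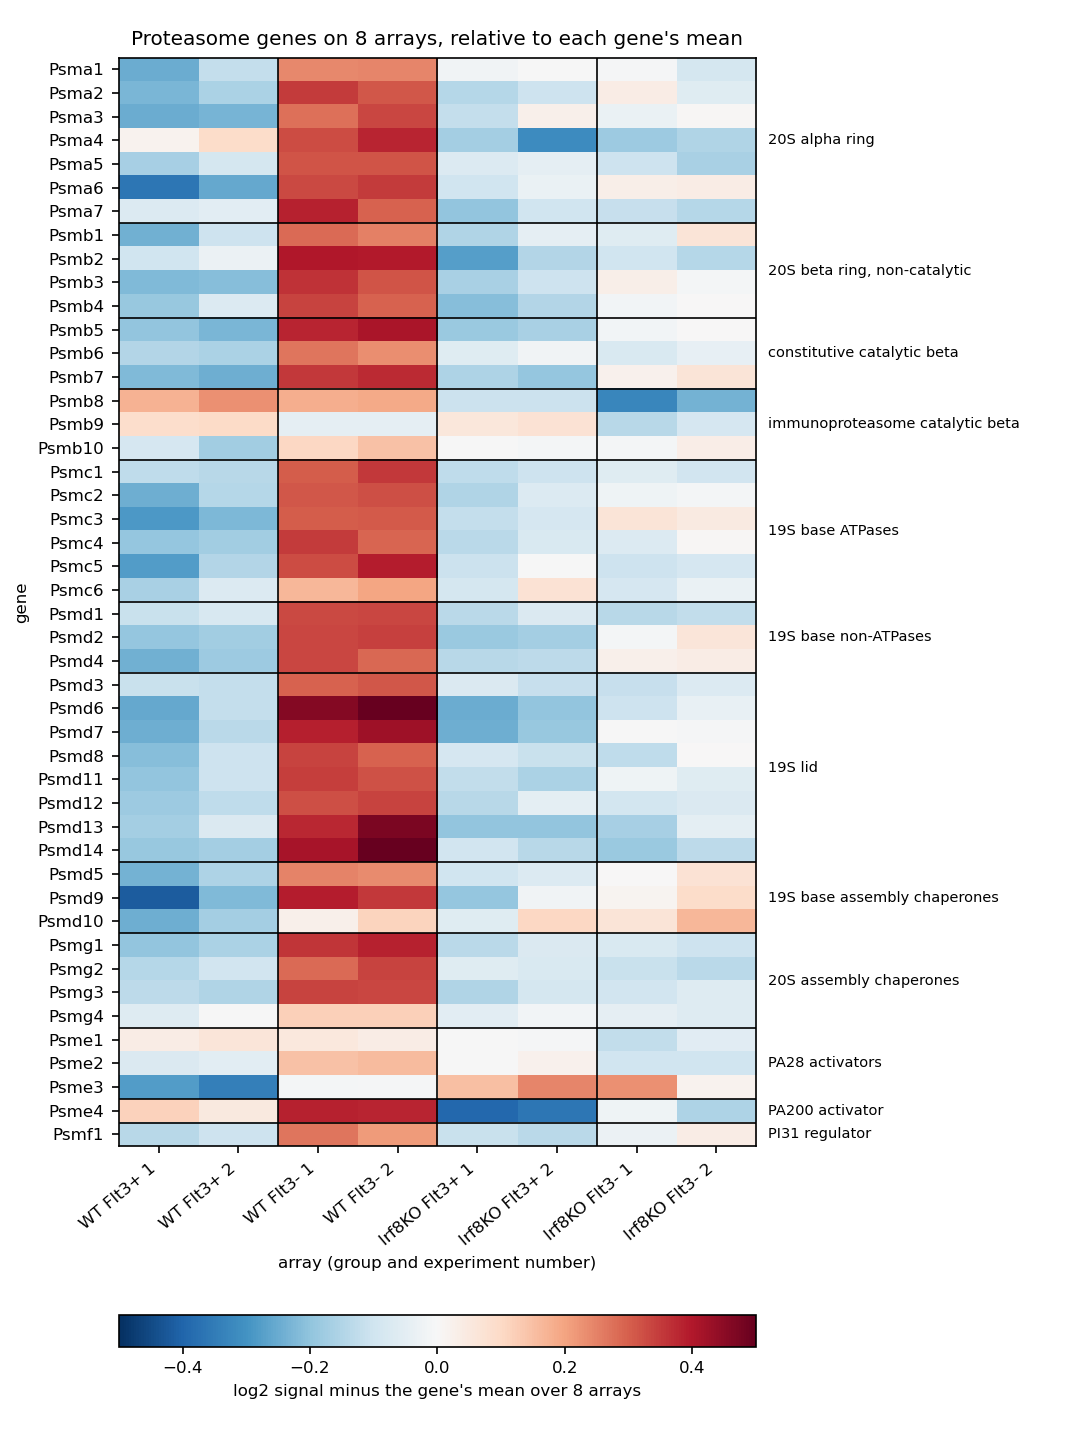
Each row is a proteasome gene, ordered by role, and each column an array; colour gives the log2 signal minus the mean of that gene over the 8 arrays. Psma8, which has a wider range, is left out, and in 42 of 47 proteasome genes both WT Flt3- arrays read above the other 6.

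The first comparison asked how the populations differ in WT mice. Proteasome RNA was lower in Flt3+ than in Flt3- GPs in nearly every part of the complex. Of the 47 genes, 44 were called lower, 1 (Psmb9) was called higher, and Psmb8 and Psme1 were not called. Over all genes tested 61.8% were called, 22.6% higher and 39.2% lower. The median difference of the 47 was -0.46, beside -0.12 over all genes, in bulk RNA, in which fewer cells of a type and less RNA per cell cannot be told apart. After quantile normalization, which moved the median of all genes by about 0.1 to -0.01, 35 were called, 31 lower and 4 higher, with a median of -0.19. Under that scaling the share of higher calls among all called genes went from 36.6 to 50.5%. The 61.8% belongs to the main scaling. The share of all genes called after quantile normalization is not reported here, so member counts under it stand without that share throughout. Of the 45 calls, 40 held without any 1 array. The calls of Psmb9, Psmc6, Psmd10, Psme3 and Psmg4 were each lost without some array of the 2 WT groups (Psmb9 also without either Irf8KO Flt3+ array), at adjusted p from 0.0526 to 0.117.

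All 8 alpha subunits were called lower in WT Flt3+ GPs, with a median difference of -0.48. After quantile normalization 5 were, with a median of -0.13, and Psma1 (-0.05, adjusted p = 0.479), Psma4 and Psma7 (-0.04, adjusted p = 0.499) were not. Among those well above background on all arrays, Psma6 had the largest difference. It read 4.45 and 4.55 in WT Flt3+ GPs, 5.14 and 5.15 in WT Flt3- GPs, 4.71 and 4.77 in Irf8KO Flt3+ GPs and 4.84 and 4.84 in Irf8KO Flt3- GPs, so that WT Flt3- stood above and WT Flt3+ below the rest. The difference between WT populations was -0.65 (SE 0.0513, adjusted p = 0.000155), a 1.56-fold lower signal. Psma4 was at the other end of the ring with -0.30 (SE 0.0622, adjusted p = 0.00742), and after quantile normalization it read -0.01 and was not called (adjusted p = 0.918).

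In the beta rings, the 4 structural subunits Psmb1 to Psmb4 and the 3 constitutive catalytic subunits were all called lower, with medians of -0.45 and -0.60. Psmb3 had the largest structural difference (-0.55, SE 0.0434, adjusted p = 0.000144). Psmb5, the chymotrypsin-like subunit, read 6.40 and 6.37 in WT Flt3+, 6.98 and 7.01 in WT Flt3-, 6.41 and 6.43 in Irf8KO Flt3+ and 6.58 and 6.60 in Irf8KO Flt3- GPs, and differed by -0.61 between WT populations (SE 0.0385, adjusted p = 6.44e-05). Psmb7, the trypsin-like subunit, read 3.36 and 3.34 against 3.94 and 3.96 in WT, and 3.43 and 3.39 against 3.60 and 3.65 in Irf8KO, with a WT difference of -0.60 (SE 0.0408, adjusted p = 8.51e-05). Psmb6, the caspase-like subunit, read 6.06 and 6.05 against 6.48 and 6.44 in WT, and 6.15 and 6.19 against 6.13 and 6.17 in Irf8KO, with a WT difference of -0.40 (SE 0.0407, adjusted p = 0.000387). In Psmb6 the Irf8KO groups overlapped. After quantile normalization Psmb5 and Psmb7 stayed called and Psmb6 did not (-0.04, adjusted p = 0.463).

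The 17 subunits of the 19S particle were all called lower in WT Flt3+ GPs, and 14 of them also after quantile normalization. The 6 ATPases had a median of -0.51, from -0.30 for Psmc6 (SE 0.0674, adjusted p = 0.0107; 0.0561 without WT Flt3- replicate 2) to -0.57 for Psmc5 (SE 0.0648, adjusted p = 0.000624). Psmc5 read 4.16 and 4.29 in WT Flt3+, 4.76 and 4.83 in WT Flt3-, 4.33 and 4.44 in Irf8KO Flt3+ and 4.34 and 4.36 in Irf8KO Flt3- GPs. The scaffold and ubiquitin-receptor subunits of the base, Psmd1, Psmd2 and Psmd4, lay close together, from -0.43 to -0.52. The 8 lid subunits had a median of -0.52, and the largest lid difference was that of Psmd6 (-0.67, SE 0.0608, adjusted p = 0.00026), which read 3.66 and 3.80 in WT Flt3+, 4.37 and 4.42 in WT Flt3-, 3.67 and 3.72 in Irf8KO Flt3+ and 3.81 and 3.88 in Irf8KO Flt3- GPs. Psmd14, the metalloprotease that cuts ubiquitin from substrates, read 2.52 and 2.54 in WT Flt3+ and 3.13 and 3.21 in WT Flt3- GPs, and 2.62, 2.57, 2.53 and 2.58 on the 4 Irf8KO arrays. Only its WT Flt3- arrays stood apart, by -0.64 between WT populations (SE 0.0489, adjusted p = 0.000135). The lid subunit nearest 0 was Psmd3, at -0.42 (SE 0.0407, adjusted p = 0.000338), which was not called after quantile normalization (adjusted p = 0.325).

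The 3 chaperones of base assembly were called lower too. Psmd9 differed by -0.69 (SE 0.0894, adjusted p = 0.00107), but its second, dimmer probe read a difference of 0.00, so the probes of this gene disagree. Psmd5 differed by -0.44 and Psmd10, which encodes gankyrin, by -0.27 (SE 0.0755, adjusted p = 0.0218; 0.0896 without WT Flt3+ replicate 1 and 0.107 without WT Flt3- replicate 2). Of the 4 chaperones of core assembly, Psmg1 had the largest difference (-0.55, SE 0.043, adjusted p = 0.000147). Psmg4 had the smallest, at -0.15 (SE 0.0422, adjusted p = 0.0212), and read 0.04 after quantile normalization. In all, 11 members had a second probe. In this comparison the second probe had the sign of the first in 10 of these, with values from -0.30 (Psme2) to -0.65 (Psmb5), Psmd9 being the exception.

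Within Flt3- GPs, the second comparison asked what differs between Irf8KO and WT mice. Proteasome RNA was lower in Irf8KO: of the 47 genes 43 were called lower, 0 higher, and Psmb9, Psmb10, Psmd10 and Psme3 were not called. Over all genes 43.6% were called, 27.2% lower. The median of the 47 was -0.34, beside -0.03 over all genes, and after quantile normalization 37 were called, all lower, with a median of -0.21. This comparison shares the WT Flt3- arrays with the first, so the values of both rest on the same 2 high arrays. Psma8, among the 43, passed the filter through its WT arrays only. With a filter on all 8 arrays, which leaves it out, the other 42 stayed called. Of the 43 calls, 34 held without any 1 array. Without either WT Flt3- array 35 were left, without Irf8KO Flt3- replicate 1 37 and without replicate 2 38. The calls of Psma1, Psma3, Psmb1, Psmc6, Psmd5, Psmd9, Psme1, Psmf1 and Psmg4 were the ones lost, at adjusted p from 0.0503 to 0.189.

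By role, all 8 alpha subunits (median -0.39), all 4 structural beta subunits (-0.33), all 3 constitutive catalytic subunits (-0.32) and all 17 subunits of the 19S particle were called lower in Irf8KO Flt3- GPs. The 8 alpha subunits include Psma8, which was not well above background on the Irf8KO arrays. Among genes well above background on all arrays, Psmd14 had the largest difference, -0.61 (SE 0.0489, adjusted p = 0.000541), a 1.53-fold lower signal. Next came the lid subunits Psmd6 (-0.55, SE 0.0608) and Psmd13 (-0.53, SE 0.064), the beta subunit Psmb2 (-0.52, SE 0.0571) and the alpha subunit Psma4 (-0.52, SE 0.0622), with adjusted p from 0.00139 to 0.00187. Psmb2 read 3.43 and 3.43 in WT Flt3- and 2.93 and 2.89 in Irf8KO Flt3- GPs, and Psmd13 read 4.56 and 4.65 against 4.02 and 4.13. Among the ATPases, Psmc5 had the largest difference (-0.45, SE 0.0648, adjusted p = 0.00324) and Psmc6 the smallest (-0.24, SE 0.0674, adjusted p = 0.0339; 0.138 without WT Flt3- replicate 2). The core chaperones Psmg1, Psmg2 and Psmg3 lay at -0.46, -0.43 and -0.42, while Psmg4 lay at -0.17 (adjusted p = 0.0202; 0.0976 without WT Flt3- replicate 1). For the base chaperone Psmd10 the probe used read 0.05 (SE 0.0755, adjusted p = 0.641) and the second probe -0.31.

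Within Flt3+ GPs the same genotype comparison gave few calls. Of the 47 genes 7 were called, 3 higher (Psme3, Psma6 and Psmc3) and 4 lower (Psma8, Psme4, Psmb8 and Psma4), or 14.9%, beside 29% of all genes (16.5% higher, 12.5% lower). The median difference was 0.06, beside 0.04 over all genes, and -0.03 after quantile normalization, which called 2 higher and 9 lower. Leaving out Irf8KO Flt3+ replicate 2 left 4 calls, as did a fit of these 2 groups alone. The calls of Psma8, Psme4, Psmb8 and Psme3 held without any 1 array, but Psma8 passed the filter through its WT arrays only. With a filter on all 8 arrays, which leaves Psma8 out, the other 6 stayed called. Psma6 differed by 0.24 (SE 0.0513, adjusted p = 0.0198), Psma4 by -0.30 (SE 0.0622, adjusted p = 0.0188) and Psmc3 by 0.15 (SE 0.042, adjusted p = 0.0422). The second probe of Psmc3 read a difference of 0.03. Psma6 was not called without WT Flt3+ replicate 1 or either Irf8KO Flt3+ array (adjusted p 0.0571 to 0.108), nor was Psma4 without replicate 2 of either group (0.0682 and 0.0848). Psmc3 was not called without any of 7 arrays (0.0642 to 0.185) or with the experiment as a block (0.0517). With that block Psma3 (0.19, adjusted p = 0.0433) and Psmd10 (0.23, adjusted p = 0.0202) passed instead.

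Psma4, an alpha subunit at the core gate, read 4.29 and 4.36 in WT Flt3+, 4.60 and 4.65 in WT Flt3-, 4.10 and 3.96 in Irf8KO Flt3+ and 4.09 and 4.12 in Irf8KO Flt3- GPs. Both Irf8KO groups lay below both WT groups, as they also did in Psma7 and in the dim Psma8. The interaction was 0.22 (SE 0.088, adjusted p = 0.109) and did not pass. Its second probe gave -0.33 in Flt3+ and -0.60 in Flt3- GPs.

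Between the Irf8KO populations, Flt3+ against Flt3-, 11 of the 47 genes were called, 9 lower and 2 higher (23.4%, beside 45.8% of all genes, 22.1% higher and 23.6% lower), and the median was -0.05, beside -0.03 over all genes, and turned to 0.04 after quantile normalization. The lower ones were Psmb7 (-0.21, SE 0.0408, adjusted p = 0.00729), Psme4, Psmd7, Psmd2, Psmb4, Psmb5, Psmd4, Psmc3 and Psmb3, and the higher ones Psmb8 and Psmb9. All 8 alpha subunits missed the threshold, between -0.11 and 0.08. This count rested on single arrays. It was 1 (Psmb7) without Irf8KO Flt3+ replicate 1, 3 without replicate 2, 4 and 5 without Irf8KO Flt3- replicates 1 and 2, and 7 without either WT Flt3- array. After quantile normalization 10 were called, 7 higher and 3 lower, and Psmb5 and Psmc3 turned to 0.04 and 0.05. With the experiment as a block Psmb3 was lost (adjusted p = 0.0558) and Psmd6 gained (-0.15, adjusted p = 0.0431).

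Whether the genotype difference depends on the population was tested as an interaction, the Irf8KO minus WT difference in Flt3+ minus that in Flt3- GPs. It was positive and called for 38 of the 47 genes and negative and called for 0, with a median of 0.41, beside 0.07 over all genes. Over all genes 30.9% were called, 21.4% positive and 9.45% negative. After quantile normalization 18 members were called, 17 positive and 1 negative (Psmb9), with a median of 0.19, and the share of positive calls among all called genes went from 69.4 to 51.4%. The interaction uses the WT Flt3- arrays too, and both of them read above all other 6 arrays in 42 of the 47 genes (89.4%), beside 26.8% of all genes tested. The exceptions were Psmb8, Psmb9, Psmd10, Psme1 and Psme3. This count uses 1 probe per gene. By its second probe Psmd10 was highest on the WT Flt3- arrays (0.56 and 0.59, and up to 0.35 elsewhere). By its second probe Psmd9, counted among the 42, was not (0.62 and 0.58, and up to 0.75 elsewhere). Of the 38 calls, 24 held without any 1 array, and between 26 and 36 members were called when 1 array was left out, with 26 without WT Flt3- replicate 1 or Irf8KO Flt3+ replicate 2.

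**Figure D2:**
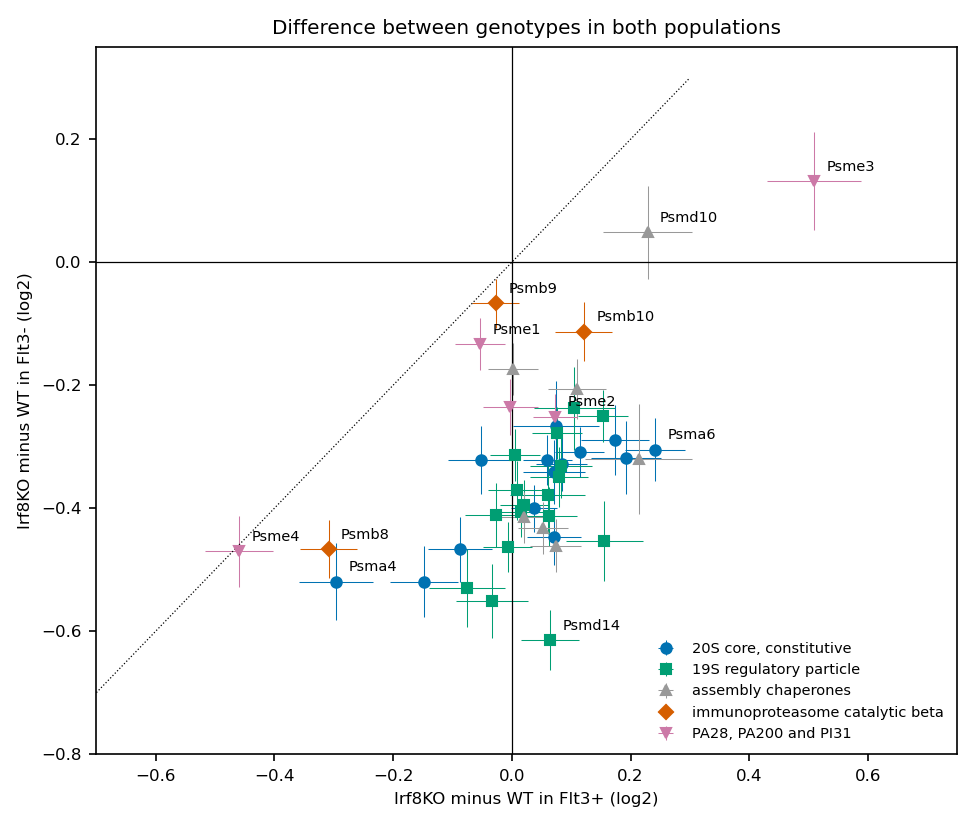
Each point is a proteasome gene, with Psma8 left out. The horizontal axis gives the Irf8KO minus WT difference (log2) in Flt3+ GPs and the vertical axis that in Flt3- GPs, with bars of 1 SE. Most points lie near 0 horizontally (median 0.06, and -0.03 after quantile normalization) and below 0 vertically (median -0.34), under the dotted line of equal differences. The medians are over all 47 genes, Psma8 included.

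All 17 subunits of the 19S particle had a called interaction, as did 13 of the 15 alpha, structural beta and constitutive catalytic subunits (all but Psma4 and Psmb1), and after quantile normalization 8 and 5 did. Psma8, which is among these, was not well above background on the Irf8KO arrays. Psmd14 had the largest among genes well above background on all arrays (0.68, SE 0.0691, adjusted p = 0.00268), with differences of 0.06 in Flt3+ and -0.61 in Flt3- GPs. It was followed by the ATPase Psmc5 (0.61, SE 0.0916, adjusted p = 0.0072), the alpha subunit Psma6 (0.55, SE 0.0726, adjusted p = 0.0051) and the core chaperone Psmg1 (0.54, SE 0.0608, adjusted p = 0.00354). Psmg1 read 4.78 and 4.82 in WT Flt3+, 5.34 and 5.36 in WT Flt3-, 4.85 and 4.91 in Irf8KO Flt3+ and 4.90 and 4.88 in Irf8KO Flt3- GPs. All 4 of these stayed called after quantile normalization, at 0.55, 0.38, 0.31 and 0.27. The smallest called values were those of Psmf1 (0.23, adjusted p = 0.0418), Psmb10 (0.23, adjusted p = 0.0483) and Psmb4 (0.27, adjusted p = 0.0491), and with the experiment as a block these 3 were not called (0.0585, 0.0674 and 0.0534), while Psmb1 was (0.34, adjusted p = 0.0368). Psmf1 was lost without any of the 8 arrays, and Psmb10 and Psmb4 without 7 of them, at adjusted p up to 0.151. Psmb10 turned to -0.00 after quantile normalization.

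Brighter genes as a class also shifted, so the members were set beside genes of like signal. Of the other genes, 2648 had a mean between 3.08 and 5.78, the lower and upper quartile of the members. Their median difference was -0.26 between the WT populations, with 62.5% called lower, and the members in that range had a median of -0.50. Between genotypes in Flt3- GPs the medians were -0.12 for these genes (42.8% called lower) and -0.38 for the members, and in Flt3+ GPs 0.08 and 0.06. For the interaction they were 0.21 (41.6% called positive) and 0.44. Signal level moved with the differences, and its part in them was not tested.

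**Figure D3:**
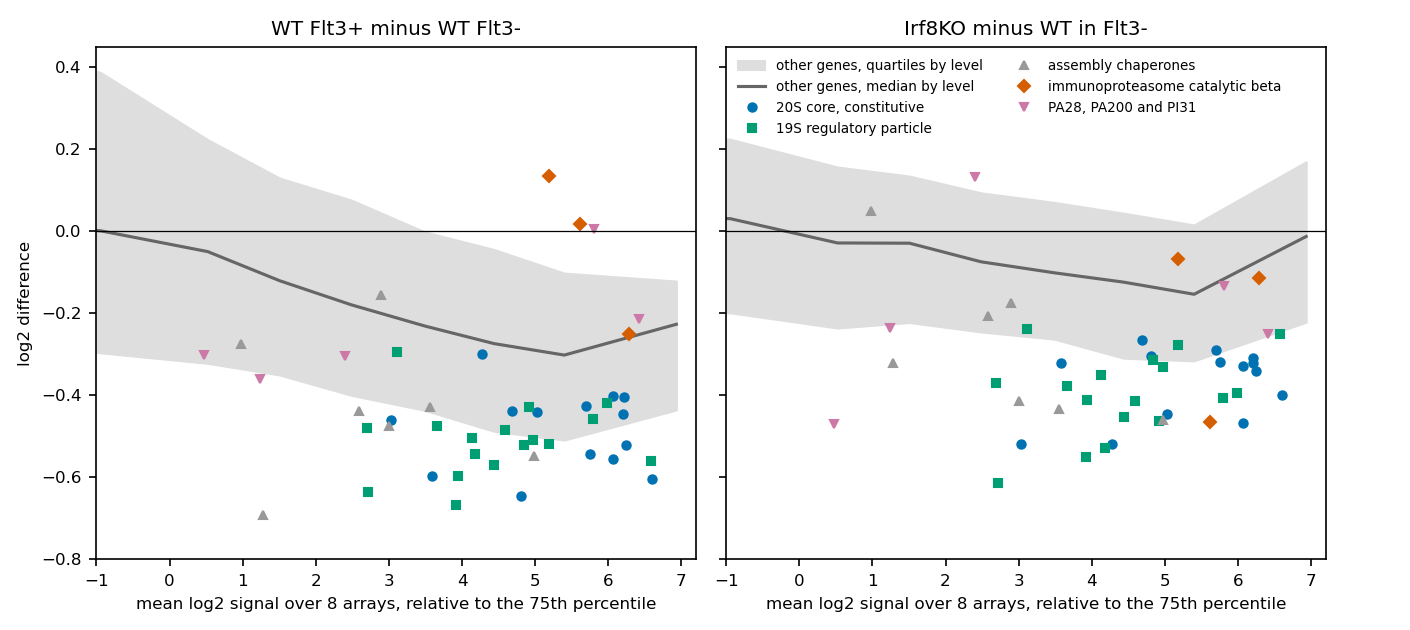
Points are the proteasome genes, with Psma8 left out. The horizontal axis gives the mean log2 signal over the 8 arrays and the vertical axis the difference (log2). The panels are WT Flt3+ minus WT Flt3- and Irf8KO minus WT in Flt3- GPs. The line and band are the median and quartiles of the other genes by signal. The line falls as the signal rises to about 6 and turns back above that in both panels, and most members lie below it.

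Of the immunoproteasome subunits, Psmb8 and Psmb9 were among the exceptions to the high WT Flt3- arrays, and Psmb10 was not. Psmb8, the inducible counterpart of Psmb5, read 5.79 and 5.84 in WT Flt3+, 5.80 and 5.80 in WT Flt3-, 5.51 and 5.51 in Irf8KO Flt3+ and 5.29 and 5.38 in Irf8KO Flt3- GPs. Both Irf8KO groups lay below both WT groups, and the WT groups overlapped. Psmb8 was lower in Irf8KO by -0.31 in Flt3+ GPs (SE 0.0478, adjusted p = 0.00698) and by -0.47 in Flt3- GPs (SE 0.0478, adjusted p = 0.00113), 1.24-fold and 1.38-fold, and after quantile normalization by -0.44 and -0.29. The interaction was 0.16 (SE 0.0677, adjusted p = 0.134). Psmb8 lies in the class II region of the MHC (17:34198195-34201454, GRCm38.p6), and Psmb9 beside it (17:34182030-34187330).

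Psmb9, the counterpart of Psmb6, read 5.27 and 5.28 in WT Flt3+, 5.14 and 5.14 in WT Flt3-, 5.24 and 5.26 in Irf8KO Flt3+ and 5.05 and 5.10 in Irf8KO Flt3- GPs. It was higher in Flt3+ than in Flt3- GPs in both genotypes, by 0.14 in WT (SE 0.0398, adjusted p = 0.0274; up to 0.117 without 1 array) and by 0.17 in Irf8KO (SE 0.0398, adjusted p = 0.0146; 0.0609 to 0.0744 without Irf8KO Flt3+ replicate 1 or 2 or Irf8KO Flt3- replicate 1). Between genotypes it was not called in Flt3+ (-0.03) or Flt3- GPs, but after quantile normalization it was called lower in Irf8KO Flt3+ GPs (-0.17, adjusted p = 0.0202). Its interaction was 0.04 (SE 0.0562, adjusted p = 0.643) and turned to -0.26 after quantile normalization (adjusted p = 0.0186). Psmb10, the counterpart of Psmb7, read 6.21 and 6.12 in WT Flt3+, 6.39 and 6.43 in WT Flt3-, 6.29 and 6.28 in Irf8KO Flt3+ and 6.28 and 6.32 in Irf8KO Flt3- GPs. The WT difference was -0.25 (SE 0.0481, adjusted p = 0.00537) and turned to 0.12 after quantile normalization (adjusted p = 0.0764). That scaling gave 0.39 for Psmb8 (adjusted p = 0.00108) and 0.49 for Psmb9 (adjusted p = 0.000146) between the WT populations.

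The change of each inducible subunit was set against the change of its constitutive counterpart on the same array, both taken from their WT Flt3- means. This difference does not depend on the scale of the array, though quantile normalization can change it. For Psmb8 minus Psmb5 it was 0.58 and 0.67 in WT Flt3+, 0.29 and 0.26 in Irf8KO Flt3+ and -0.11 and -0.03 in Irf8KO Flt3- GPs (pooled SD 0.0424), the last turning to 0.07 in the mean after quantile normalization. For Psmb9 minus Psmb6 it was 0.53 and 0.55, then 0.41 and 0.38, then 0.23 and 0.25 (pooled SD 0.0185). For Psmb10 minus Psmb7 it was 0.38 and 0.31, then 0.39 and 0.42, then 0.21 and 0.21 (pooled SD 0.0273). In every pair both Flt3+ groups lay above both Flt3- groups, and no test was run on these differences.

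**Figure D4:**
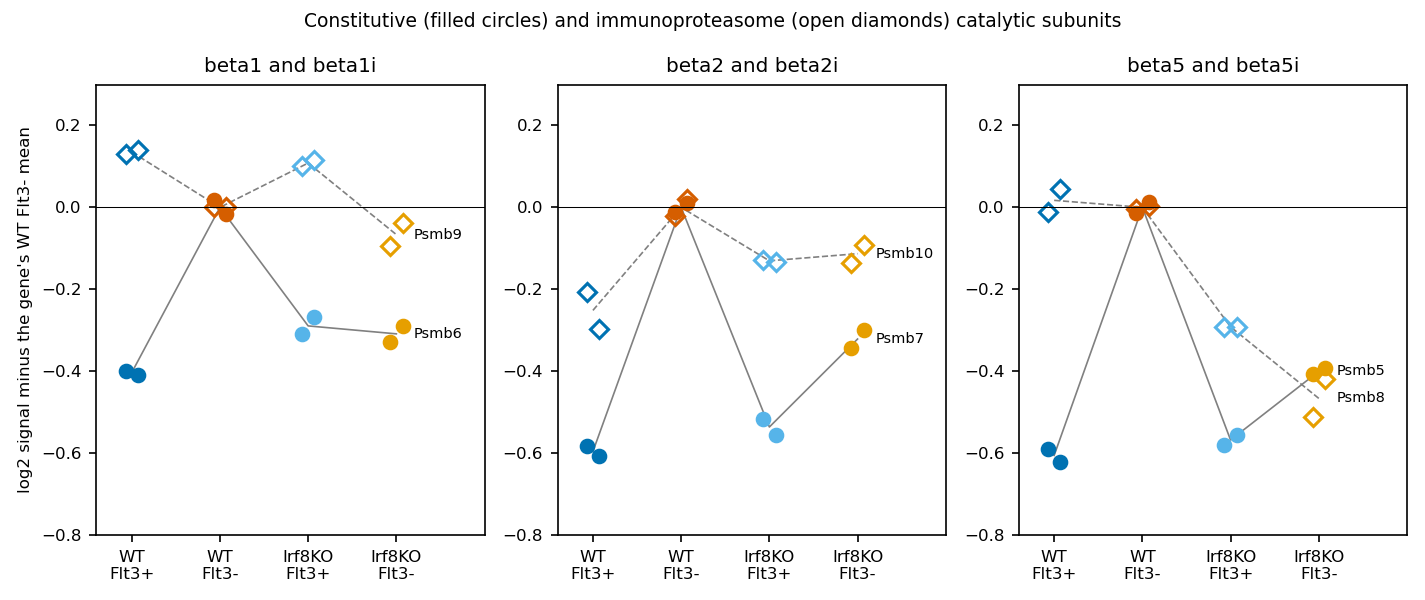
The 3 panels give, for each array, the log2 signal of a constitutive catalytic subunit (filled circles) and of its inducible counterpart (open diamonds) minus that gene's WT Flt3- mean, with lines joining group means. The constitutive subunits drop from WT Flt3- to each other group, and Psmb8 drops in the Irf8KO groups but not in WT Flt3+.

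Among the activators, Psme1 and Psme2 encode the subunits of the cytoplasmic PA28 ring and Psme3 the nuclear PA28 gamma. Psme1 (14:55578494-55581527, GRCm38.p6), measured by 10 spots per array, read 5.84 and 5.86 in WT Flt3+, 5.85 and 5.84 in WT Flt3-, 5.80 and 5.80 in Irf8KO Flt3+ and 5.68 and 5.75 in Irf8KO Flt3- GPs. Its WT groups overlapped, though after quantile normalization Psme1 was called higher in WT Flt3+ than in WT Flt3- GPs (0.39, adjusted p = 0.000683). The difference of -0.13 between genotypes in Flt3- GPs (SE 0.042, adjusted p = 0.0469) was lost without any of the 8 arrays (0.0523 to 0.189) and with the experiment as a block (0.056), and turned to 0.01 after quantile normalization. Psme2 (14:55587440-55591101) read 6.34 and 6.36, then 6.56 and 6.57, then 6.41 and 6.44, then 6.31 and 6.32, in the same order of groups. It was lower in Irf8KO Flt3- than in WT Flt3- GPs by -0.25 (SE 0.0369, adjusted p = 0.00358; -0.13 after quantile normalization). Between WT populations it was -0.21 (SE 0.0369, adjusted p = 0.00357), which turned to 0.18 after quantile normalization (adjusted p = 0.00544).

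Psme3 went the other way by genotype. It read 2.12 and 2.06 in WT Flt3+, 2.39 and 2.40 in WT Flt3-, 2.56 and 2.65 in Irf8KO Flt3+ and 2.63 and 2.42 in Irf8KO Flt3- GPs. Every Irf8KO array lay above every WT array, and the difference was 0.51 in Flt3+ GPs (SE 0.0792, adjusted p = 0.00706), a 1.42-fold higher signal, against 0.13 in Flt3- GPs (SE 0.0792, adjusted p = 0.232; 0.0457 without Irf8KO Flt3- replicate 2). The interaction was 0.38 (SE 0.112, adjusted p = 0.0512), just short of the threshold, and was 0.0224 without Irf8KO Flt3- replicate 1. Psme4, the nuclear activator PA200, read 0.59 and 0.52 in WT Flt3+, 0.86 and 0.85 in WT Flt3-, 0.08 and 0.11 in Irf8KO Flt3+ and 0.45 and 0.32 in Irf8KO Flt3- GPs. It was lower in Irf8KO by -0.46 in Flt3+ (SE 0.0573, adjusted p = 0.00323) and -0.47 in Flt3- GPs (SE 0.0573, adjusted p = 0.00192), and both Irf8KO groups lay below both WT groups. Its second probe read -0.22 and -0.31, and the interaction was 0.01 (SE 0.081, adjusted p = 0.934).

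Psmf1 encodes PI31, which binds the core. It read 1.10 and 1.14 in WT Flt3+, 1.51 and 1.45 in WT Flt3-, 1.13 and 1.11 in Irf8KO Flt3+ and 1.21 and 1.28 in Irf8KO Flt3- GPs. Like the core subunits it stood highest on the WT Flt3- arrays, and it was lower by -0.36 in WT Flt3+ (SE 0.0457, adjusted p = 0.000981) and by -0.24 in Irf8KO Flt3- GPs (SE 0.0457, adjusted p = 0.00923; 0.0642 without WT Flt3- replicate 1).

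**Figure D5:**
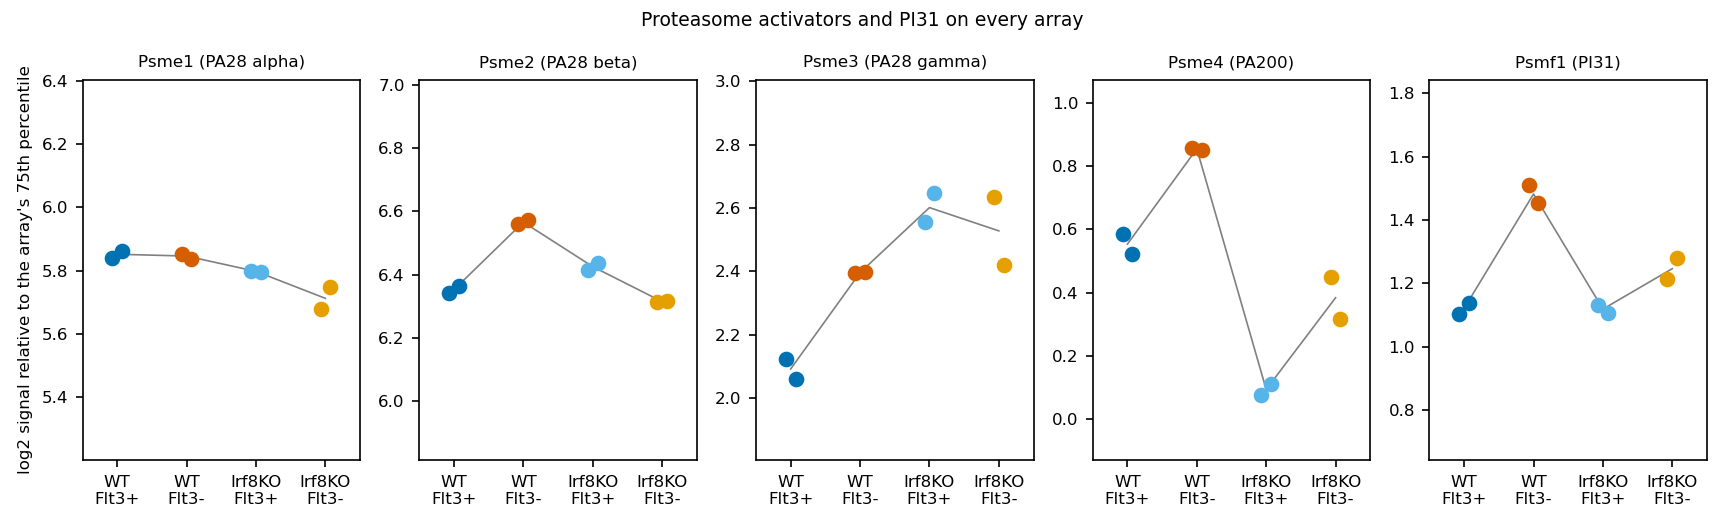
Points give the log2 signal (minus the array's 75th percentile) of 4 activator genes and the regulator gene Psmf1 on every array, with lines joining group means and vertical axes of equal span. Psme3 lies higher and Psme4 lower on the Irf8KO arrays than on the WT arrays of the same population.

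Psma8, the alternative alpha subunit of the testis, was dim. It read -4.19 and -4.45 in WT Flt3+ and -3.32 and -3.63 in WT Flt3- GPs, where it was well above background, and -5.35, -5.64, -5.43 and -5.47 on the Irf8KO arrays, where it was not. Psma8 thus passed the filter through its WT arrays only, and its genotype calls rest on that choice. Its WT mean lay 2.10-fold in Flt3+ and 2.95-fold in Flt3- GPs above the lowest signal well above background on the Irf8KO arrays. The fitted Flt3+ difference of -1.18 turned to 0.06 with another background correction (normexp). Between WT populations it was -0.84 (SE 0.152, adjusted p = 0.00428).

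Of the 2 genes that share only the name, Psmc3ip read 1.34 and 1.41 in WT Flt3+, 2.01 and 1.93 in WT Flt3-, 1.30 and 1.35 in Irf8KO Flt3+ and 1.29 and 1.51 in Irf8KO Flt3- GPs. It too was highest in WT Flt3- GPs, by -0.59 between WT populations (SE 0.0801, adjusted p = 0.00128), by -0.57 between genotypes in Flt3- GPs (SE 0.0801, adjusted p = 0.00299) and with an interaction of 0.52 (SE 0.113, adjusted p = 0.0208; up to 0.0731 without 1 of 5 arrays of the WT groups and Irf8KO Flt3+). Psme3ip1 read from 2.74 to 3.05 over the 8 arrays and was not called in any of the 5 comparisons.

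Other genes of the proteasome system were taken from a list that the symbol rule does not reach, and 16 of 20 were measured. Between the WT populations 9 were lower and 1 higher, with a median of -0.28. That is 62.5% called, beside 61.8% of all genes. Sem1, the smallest lid subunit, was lower by -0.86 (SE 0.047, adjusted p = 3.51e-05). The deubiquitinases Uchl5 (-0.73, SE 0.0547) and Usp14 (-0.67, SE 0.0417) and the ubiquitin receptor Adrm1 (-0.68, SE 0.0411), which all bind the 19S particle, were lower too, at adjusted p from 5.34e-05 to 0.00012. Between genotypes in Flt3- GPs 6 were lower and 1 higher (43.8%, beside 43.6% of all genes), with Usp14 at -0.47, Txnl1 at -0.43, Uchl5 at -0.40 and Adrm1 at -0.31, and the interaction was positive and called for 7 and negative for 1 (50%, beside 30.9%). In Flt3+ GPs 3 were higher in Irf8KO and 1 lower (25%, beside 29% of all genes), Ecpas, an adaptor of the 19S particle, leading at 0.35 (SE 0.0539, adjusted p = 0.00667). Pomp, the core maturation factor, differed by -0.23 between WT populations and by 0.10 after quantile normalization, and had an interaction of 0.35 (SE 0.0601, adjusted p = 0.01). Nfe2l1, the transcription factor that raises proteasome genes when the proteasome is inhibited, was lower by -0.38 between WT populations and by -0.19 between genotypes in Flt3- GPs. After quantile normalization the counts were 3 higher and 6 lower between WT populations, 2 and 6 between genotypes in Flt3- GPs, and 5 and 1 for the interaction.

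Of 16 ubiquitin and shuttle genes 15 were measured. Between WT populations 8 were lower and 1 higher (60%, beside 61.8% of all genes; median -0.27, beside -0.12). Between genotypes in Flt3- GPs 6 were lower and 2 higher (53.3%, beside 43.6%; median -0.13, beside -0.03). After quantile normalization the lower calls were 5 and 4 and the higher ones 2 and 1. Rad23b, a shuttle factor, was lower by -0.59 between WT populations (SE 0.0494, adjusted p = 0.000193) and by -0.56 between genotypes in Flt3- GPs (SE 0.0494, adjusted p = 0.000746). Ubqln1, another shuttle, was lower by -0.52 and -0.38, and Ufd1, a cofactor of the segregase p97, by -0.58 between WT populations. The interaction was positive and called for 6 genes and negative for 0 (40%, beside 30.9%), with Rad23b at 0.64 (SE 0.0699, adjusted p = 0.00325) and Ubqln1 at 0.51, and after quantile normalization for 2.

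The listed genes of class I presentation did not move as the core did. Of 14 measured of 15, 5 were higher and 3 lower in WT Flt3+ than in WT Flt3- GPs (57.1%, beside 61.8% of all genes; median 0.04), and 7 were higher and 3 lower in Irf8KO Flt3- than in WT Flt3- GPs (71.4%, beside 43.6%; median 0.19). The 3 lower ones between WT populations were the endoplasmic chaperones Calr (-1.56, SE 0.0518), Pdia3 (-1.15, SE 0.0452) and Canx (-0.74, SE 0.0489), which serve all glycoproteins. Nlrc5, the transactivator of class I genes, was higher by 0.91 between WT populations (SE 0.0735, adjusted p = 0.000166) and by 0.80 between genotypes in Flt3- GPs (SE 0.0735, adjusted p = 0.000822). The heavy chains H2-K1 and H2-D1 were higher in Irf8KO Flt3- GPs by 0.61 (SE 0.0412, adjusted p = 0.000361) and 0.48 (SE 0.0432, adjusted p = 0.00076), and Tap1, whose start lies beside that of Psmb9, by 0.21. On these same arrays Psmb8 was called lower and Psmb9 was not called. After quantile normalization the class I counts were 9 higher and 3 lower, and 9 and 1.

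Of the 18 interferon-gamma pathway genes, all measured, 13 were higher and 4 lower between WT populations (94.4%, beside 61.8% of all genes; median 0.59), and 10 were higher and 2 lower between genotypes in Flt3- GPs (66.7%, beside 43.6%; median 0.24). Irf9, part of the interferon-activated ISGF3 complex, was higher by 1.03 between WT populations (SE 0.0438, adjusted p = 1.5e-05), and Irf2 by 0.97 (SE 0.059, adjusted p = 5.37e-05). Gbp4, an interferon-induced GTPase, was well above background on both WT Flt3+ arrays and on neither WT Flt3- array. It passed the filter through Flt3+ arrays only, and its call rests on that choice. Its WT Flt3+ mean lay 1.95-fold above the lowest signal well above background on the WT Flt3- arrays. Gbp2, of the same family, was higher by 1.10 in Irf8KO Flt3- GPs (SE 0.0772, adjusted p = 0.000399). Ifngr1, the ligand-binding chain of the receptor, was lower by -1.65 between WT populations (SE 0.0587, adjusted p = 7.65e-06) and higher in Irf8KO by 1.17 in Flt3+ GPs (SE 0.0587, adjusted p = 0.000116) and by 0.64 in Flt3- GPs (SE 0.0587, adjusted p = 0.00083). Gbp3 was lower in Irf8KO Flt3+ GPs by -1.10 (SE 0.0646, adjusted p = 0.000198). The interaction was negative and called for 7 genes and positive for 1 (44.4%, beside 30.9%), with Gbp2 at -0.71 (SE 0.109, adjusted p = 0.00764).

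Markers of cell types differed between the same groups. The summed signal (log2) of 10 granulocyte progenitor markers ran from 9.78 to 9.94 in WT Flt3+, 11.22 to 11.30 in WT Flt3-, 10.46 to 10.47 in Irf8KO Flt3+ and 11.43 to 11.56 in Irf8KO Flt3- GPs. That of 11 measured eosinophil, basophil and mast cell markers of 12 was 4.01 to 4.07, 7.24 to 7.24, 2.95 to 3.01 and 6.21 to 6.21, highest in WT Flt3- GPs like the proteasome genes. That of 11 lymphoid markers of 12 was 7.34 to 7.41, 6.65 to 6.67, 8.09 to 8.20 and 6.57 to 6.59. In the Flt3- groups Nkg7, at 6.45 to 6.57, carried most of it, and Nkg7 was lower in Flt3+ GPs. Of the 11 that passed the filter, 8 were called higher and 1 lower in Flt3+ than in Flt3- GPs in each genotype, with fitted medians of 3.25 in WT and 2.75 in Irf8KO. Over all genes 22.6% were called higher in WT and 22.1% in Irf8KO. Of the 11, 5 were not well above background on all arrays. Rag1, Il7r and Lax1 passed the filter only through the Flt3+ arrays, where they were high, so these counts and medians rest in part on that filter. That of 14 dendritic cell markers of 17 was 8.23 to 8.37, 7.76 to 7.85, 8.42 to 8.45 and 8.02 to 8.12. Siglech, at 7.45 to 7.91 on every array, carried most of that sum. Flt3, which defines the populations, is in the sum and among the markers that passed the filter, so its difference is no separate result. It read 6.21 in WT Flt3+ against 1.69 and 1.66 in WT Flt3- GPs, and 6.29 and 6.30 against 2.71 and 2.68 in Irf8KO. The sum without Flt3 was not computed. Of the 14 that passed the filter, 10 were called higher in WT Flt3+ than in WT Flt3- GPs and 0 lower, with a fitted median of 2.68 (10 and 0 in Irf8KO, median 2.01). The same shares over all genes stand beside these. Of the 14, 3 were not well above background on all arrays, and Clec9a passed the filter through the WT Flt3+ arrays only. The sum of 9 monocyte and macrophage markers of 10 was 6.12 to 6.18, 6.05 to 6.06, 7.17 to 7.21 and 7.25 to 7.25, with F13a1 the brightest (4.91 to 6.66). After quantile normalization, 5 of the 8 that passed the filter were called higher and 3 lower in Irf8KO Flt3- than in WT Flt3- GPs. The 12 markers of erythroid cells and megakaryocytes gave 5.80 to 5.87, 4.85 to 4.85, 4.41 to 4.41 and 3.67 to 3.73, and the 10 of mature neutrophils 3.14 to 3.16, 4.07 to 4.11, 5.28 to 5.30 and 5.10 to 5.10. Between WT populations neither list moved as 1. After quantile normalization, 5 of 11 erythroid and megakaryocyte markers were called higher and 4 lower in WT Flt3+ GPs (median 0.06). Itga2b read -0.55 and -0.49 there against 1.42 and 1.41 in WT Flt3- GPs. Of the neutrophil markers 3 were higher and 3 lower (median 0.09). Among the markers, Xcr1 and Cma1 were not well above background on any array. The part of these cell types in the proteasome differences was not tested.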

How the data were processed

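RNA of 8 samples was measured on one-colour Agilent arrays after RNeasy Micro extraction and low-input Cy3 labelling, per the labels' protocols. Per the file headers, the authors' spot intensity values come from Agilent Feature Extraction 10.7.3.1 (protocol GE1_107_Sep09), background-subtracted and not scaled between arrays. The flags for well above background were used as deposited. Sample titles gave the group and the experiment number of each array. Control and outlier spots were left out, the spots of a probe averaged, log2 taken and the 75th percentile of the array subtracted. Probes were named through RefSeq accessions (GRCm38.p6; 26762 named, 28919 not named here). Of the probes of a gene, the one with the highest mean stood for it. All 8 arrays were fitted in limma 3.58.1 under R 4.3.3 with 1 mean per group and moderated variances (prior degrees of freedom 1.76, residual 4).

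The alternatives were quantile normalization, normexp background correction (offset 50), no filter or a filter on all 8 arrays, the mean of all kept probes, a fit of the compared groups alone, the deposited series table, each array left out, the experiment number as a block, and, chosen after seeing the data, a 75th percentile over spots. Judged from its values, that table holds the processed intensity, as deposited by the authors, times 1 factor per array (0.672 to 1.33). The experiment numbers pair arrays by their labels, and deviations of arrays with the same number correlated at -0.03 to 0.12. The members, lists and named genes (the highest and lowest per role and comparison, the catalytic and PA28 subunits, and up to 4 called genes per list and comparison) were chosen with earlier results of these data known. Values of some listed genes are not reported here.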

Additional observations from a re-analysis of the deposited data

Results flagged for a closer look

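For 39 members the difference between Irf8KO and WT was not the same in Flt3+ and Flt3- GPs, by the interaction term of the limma fit (adjusted p under 0.05). All 39 values, given as the Flt3+ difference minus the Flt3- difference in log2, were positive, and all rest on the same 8 arrays, the WT Flt3- arrays among them. Over all genes 30.9% were called, 21.4% positive and 9.45% negative. Of the 38 that are proteasome genes, 17 were called again after quantile normalization, and 24 held without any 1 array.

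In the alpha ring the values were 0.46 for Psma1, 0.41 for Psma2, 0.51 for Psma3, 0.52 for Psma5, 0.55 for Psma6, 0.38 for Psma7 and 0.79 for Psma8, whose Irf8KO arrays were not well above background. In the beta rings they were 0.37 for Psmb2, 0.41 for Psmb3, 0.27 for Psmb4, 0.44 for Psmb5, 0.42 for Psmb6 and 0.38 for Psmb7. Psmb10, of the immunoproteasome, had 0.23, which turned to -0.00 after quantile normalization. The Flt3+ differences behind these values ran from -0.15 (Psmb2) to 0.24 (Psma6), Psma8 aside, and the Flt3- differences from -0.52 (Psmb2) to -0.11 (Psmb10).

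Among the ATPases the values were 0.42 for Psmc1, 0.41 for Psmc2, 0.40 for Psmc3, 0.43 for Psmc4, 0.61 for Psmc5 and 0.34 for Psmc6. The other base subunits had 0.46 for Psmd1, 0.32 for Psmd2 and 0.35 for Psmd4. In the lid they were 0.42 for Psmd3, 0.52 for Psmd6, 0.38 for Psmd7, 0.44 for Psmd8, 0.38 for Psmd11, 0.48 for Psmd12, 0.45 for Psmd13 and 0.68 for Psmd14. The base chaperones Psmd5 and Psmd9 had 0.32 and 0.53, and the second probe of Psmd9 gave 0.04. The core chaperones Psmg1, Psmg2 and Psmg3 had 0.54, 0.48 and 0.44, the activator Psme2 had 0.32 and the regulator Psmf1 had 0.23. Psmc3ip, which is no subunit, had 0.52.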

How the results depend on the processing

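The precision of these results is limited by 2 arrays per group. Over the settings that kept all arrays, 1945 values of members kept their direction and side of the threshold, 108 lost the call, 27 gained it, 9 turned sign with a call in either setting and 62 turned sign with no call in either. After quantile normalization, 32 of 45 calls between WT populations, 6 of 7 and 37 of 43 between genotypes in Flt3+ and Flt3- GPs, 5 of 11 between Irf8KO populations and 17 of 38 for the interaction were made again in the same direction. That setting called 11 members between genotypes in Flt3+ GPs and 18 for the interaction. It turned Psmb10 (0.12), Psme2 (0.18) and Psmg4 (0.0368) between WT populations, Psme1 (0.0148) between genotypes in Flt3- GPs, Psmb5 (0.0359) and Psmc3 (0.0510) between Irf8KO populations, Psmb10 (-0.00244) and Psmb9 (-0.26) for the interaction, and Psmb8 minus Psmb5 in Irf8KO Flt3- GPs (0.0677). Normexp turned Psma8 between genotypes in Flt3+ GPs (0.0604). Between Irf8KO populations 6 members were called with normexp, 6 with no filter and 4 in a fit of the groups alone, which also gave 4 between genotypes in Flt3+ GPs. With 1 array left out the counts ran from 40 to 45 between WT populations, 4 to 7 and 35 to 42 between genotypes in Flt3+ and Flt3- GPs, 1 to 10 between Irf8KO populations and 26 to 36 for the interaction. With the replicate block (experiment number) they were 45, 8, 42, 11 and 36, and no call changed beyond the 10 named above. With no filter the calls over all genes went from 4089 to 2677 between genotypes in Flt3+ GPs and from 4357 to 2725 for the interaction, and the fit of the groups alone gave 2666 in Flt3+ GPs. The causes of these changes were not tested.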
